A study of Homo sapiens with 2 samples.

Results

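The genes of cholesterol synthesis, uptake and efflux were examined in U87 glioblastoma cells treated with CCA-1.1. The 31 genes were listed by their known function: the enzymes that make cholesterol, the regulators of sterol regulatory element-binding proteins (SREBPs), genes that handle acetyl-CoA and sterols, and the liver X receptors (LXRs) with efflux genes. They made up 31 of the 41582 genes to which transcripts of the deposited table could be assigned. Members and comparison lists were chosen with earlier results of these data known. Levels are in TPM, a share of the library's transcripts corrected for their length. Averaged over both libraries, 30 of the genes reached 1 TPM and ABCG1 did not.

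U87 is an established human glioblastoma cell line, labelled with a WT genotype, and CCA-1.1 is a curcumin analog. The cells were grown in RPMI with fetal bovine serum and received either DMSO, the solvent, or CCA-1.1 for 72 h. There was 1 RNA-seq library for each condition, so no difference between them has a replicate check. The concentration of CCA-1.1 used for the sequenced cells is not given in the sources used here.

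Cholesterol is built from acetyl-CoA through mevalonate, isoprenoid pyrophosphates, squalene and lanosterol. When sterols are low in the endoplasmic reticulum, SCAP escorts SREBPs to the Golgi apparatus, where they are cut and released as transcription factors that switch on the enzymes of this route, and when sterols are high, INSIG proteins hold SCAP back. LXRs respond to oxysterols and switch on genes of cholesterol export, such as ABCA1 and ABCG1, and glioblastoma cells are known for taking up cholesterol while keeping their own synthesis low.

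The upstream sequences shown here were chosen by result. HMGCS1 and MSMO1 had the largest difference in each stage of synthesis, and FDPS had the highest level of the members. SREBF2 was the 1 member with a match to the sterol regulatory element core, so its match was fixed by the choice. Each sequence is the 250 bases before the RefSeq start of the gene in GRCh38.p14, given 5′ to 3′ on the strand of the gene. Capitals mark the CCAAT box, the letters bound by the factor NF-Y that works beside SREBPs, on either strand, and in SREBF2 also the sterol regulatory element core, searched as TCACNCCAC.
HMGCS1, chr5:43313413-43313662, minus strand: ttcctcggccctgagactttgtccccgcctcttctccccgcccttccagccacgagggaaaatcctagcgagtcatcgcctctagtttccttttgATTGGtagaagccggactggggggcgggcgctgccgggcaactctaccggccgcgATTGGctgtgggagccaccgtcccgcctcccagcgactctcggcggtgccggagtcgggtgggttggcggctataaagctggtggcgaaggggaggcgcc
MSMO1, chr4:165327419-165327668, plus strand: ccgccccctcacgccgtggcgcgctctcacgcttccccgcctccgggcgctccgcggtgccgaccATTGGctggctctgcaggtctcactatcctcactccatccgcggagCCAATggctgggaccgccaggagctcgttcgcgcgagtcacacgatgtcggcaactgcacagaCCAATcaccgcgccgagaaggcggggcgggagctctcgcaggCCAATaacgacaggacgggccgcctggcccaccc
FDPS, chr1:155308616-155308865, plus strand: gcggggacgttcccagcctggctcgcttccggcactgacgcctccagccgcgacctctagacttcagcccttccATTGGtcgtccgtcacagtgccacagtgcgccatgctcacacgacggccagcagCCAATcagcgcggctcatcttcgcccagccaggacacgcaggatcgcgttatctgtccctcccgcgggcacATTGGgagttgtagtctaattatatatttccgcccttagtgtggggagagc
SREBF2, chr22:41832855-41833104, plus strand: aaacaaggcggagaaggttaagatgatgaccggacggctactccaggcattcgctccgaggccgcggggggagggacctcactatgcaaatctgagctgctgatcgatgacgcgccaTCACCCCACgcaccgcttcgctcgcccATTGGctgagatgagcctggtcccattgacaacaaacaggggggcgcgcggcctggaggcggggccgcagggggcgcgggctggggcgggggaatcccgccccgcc

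In these windows HMGCS1 held 2 CCAAT boxes, MSMO1 held 4 and FDPS held 3, while SREBF2 held 1, beginning at base -106, and the core TCACCCCAC from base -133 to base -125. Among the 27 members with an entry in the promoter table, 19 (70.4%) held a CCAAT box, and among the 15 enzymes with an entry 13 (86.7%) did, compared with 37.0% of all 27305 genes with an entry and 42.1% of the 9900 expressed ones. The sterol regulatory element core was found in 1 member (3.7%), SREBF2, and in none of the 15 enzymes. It was found in 1.09% of all genes and 1.22% of expressed ones. The E-box CACGTG, another sequence to which SREBPs can bind, was found in 4 members (14.8%), ABCA1, INSIG1, SC5D and SCAP, against 7.73% of all genes and 11.4% of expressed ones, and SC5D was the 1 enzyme among them (6.67% of the 15). The GC box GGGCGG was present in 26 of the 27, all but NSDHL, against 46.2% of all genes and 74.5% of expressed ones. No member held the LXR-type repeat, AGGTCA followed by any 4 bases and AGGTCA again. This exact string was found in 0.0183% of all genes and 0% of expressed ones, so its absence from the members carries no information. Some genes have several entries, for starts inside the gene too, and a motif in any of them was counted, for the members and for all genes alike. All motifs were searched on both strands, and a match describes letters only and no bound site.

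Most enzymes of synthesis had higher TPM in the CCA-1.1 library than in the DMSO library, by modest amounts. For each gene, 1 TPM was added to both values and the log2 ratio of CCA-1.1 over DMSO was taken as the difference, a scale that understates the change of low genes. A gene passed the threshold when its difference was more than 0.32 from 0, and no test was run. With the 1 TPM added, this is more than 25% higher or more than 20% lower, and these words refer to that scale unless stated. Of the 30 members above the minimum, 22 were higher and 8 lower in direction, and 9 (30.0%) were more than 25% higher, compared with 6.84% of the 12041 protein-coding genes that averaged 1 TPM or more. MYLIP (3.33% of the members) was more than 20% lower, compared with 4.53% of all genes. No member passed 2-fold in either direction, compared with 0.341% of all genes. The members' median difference was 0.21, against 0.017 for all genes, of which 53.8% were higher in direction. Since the list was chosen with earlier results of these data known, these comparisons describe it and test nothing. In bulk RNA, a change in the level per cell and a change in the share of cells with the transcript cannot be told apart.

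**Figure D1:**
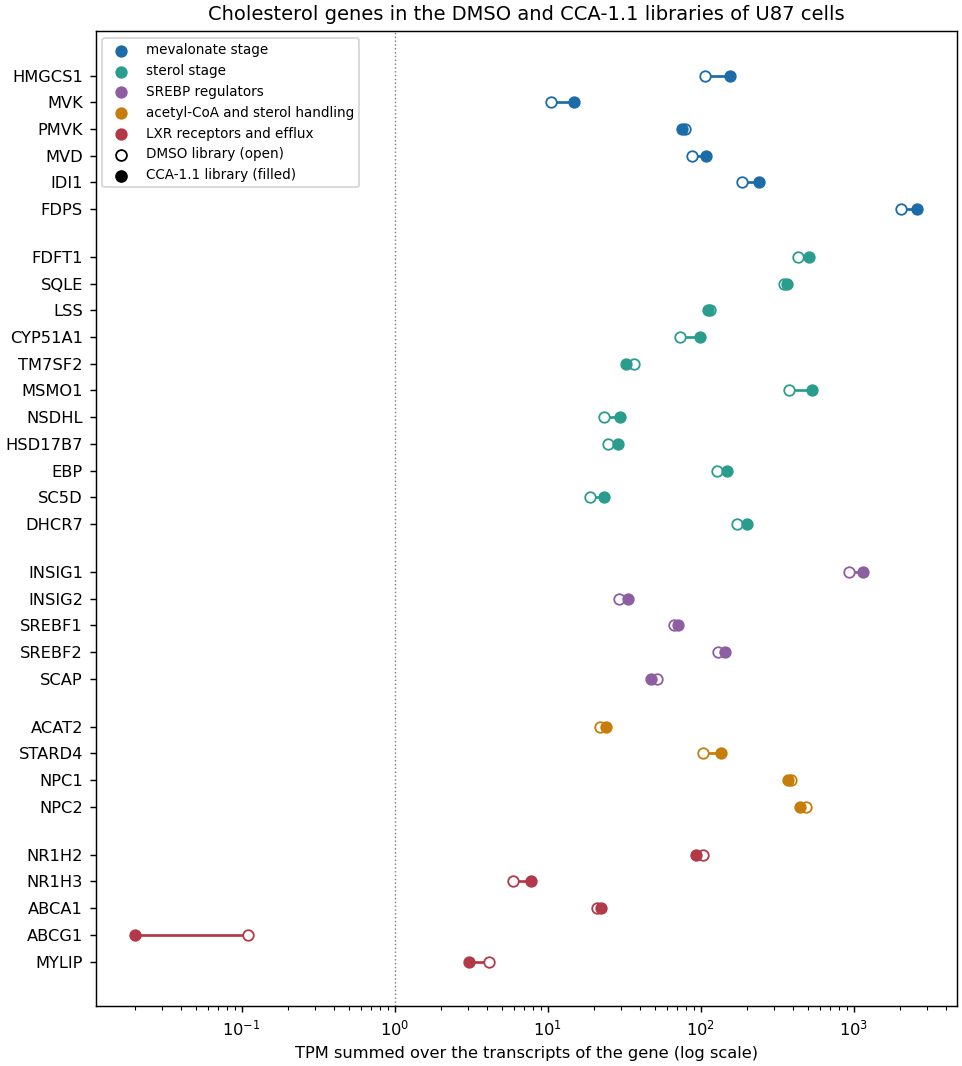
TPM of each of the 31 genes on a log scale, with the DMSO library as an open circle and the CCA-1.1 library as a filled circle (1 library each), coloured by role; the dotted line is 1 TPM. Levels run from ABCG1, at 0.11 and 0.02 TPM, to FDPS, at 2018.67 and 2593.95 TPM, and within most genes the circles lie close together.

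Most of the members past the threshold were enzymes. Of the 17 enzymes, 14 were higher in direction, 7 (41.2%) were more than 25% higher and none was more than 20% lower, with a median difference of 0.28. Their summed level was 4235.1 TPM with DMSO and 5263.3 TPM with CCA-1.1, a ratio of 1.24. FDPS alone made up much of this sum, and without it the ratio was 1.20. Among the 13 other members above the minimum, 8 were higher in direction, 2 were more than 25% higher and the median difference was 0.08. Whether the enzymes differ from the other members was not tested.

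The mevalonate stage, from acetyl-CoA units to farnesyl pyrophosphate, had the higher median of the 2 enzyme groups (0.36), with 4 of 6 genes more than 25% higher. HMGCS1 (gene ID 3157, chr5:43287470-43313412), the synthase that forms HMG-CoA, was at 106.01 TPM with DMSO and 154.17 TPM with CCA-1.1, a difference of 0.54. This was the largest difference among the members, and 98.7% of all genes lay below it. MVK (gene ID 4598, chr12:109573272-109598125), the kinase that adds the first phosphate to mevalonate, was at 10.46 and 14.73 TPM, a difference of 0.46. PMVK, which adds the next phosphate, was at 78.95 and 75.01 TPM, a difference of -0.07. MVK thus passed the threshold, while PMVK hardly differed, with 29.9% of all genes below its value.

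MVD, which decarboxylates the product to isopentenyl pyrophosphate, was at 87.07 TPM with DMSO and 107.74 TPM with CCA-1.1 (difference 0.30), just short of the threshold. IDI1, the isomerase that makes the building block reactive, was at 186.4 and 239.58 TPM (difference 0.36). FDPS, which joins these blocks to farnesyl pyrophosphate at the branch between sterols and other isoprenoids, was at 2018.67 and 2593.95 TPM (difference 0.36). FDPS had the highest level of all members in both libraries, and its 575.28 TPM difference was larger than the summed difference of the other 16 enzymes (452.9 TPM). Among the 113 genes that averaged 1000 TPM or more, 18.6% were more than 25% higher, a larger share than the 4.04% among genes of 100 to 1000 TPM.

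In the sterol stage, from squalene to cholesterol, 9 of 11 genes were higher in direction and 3 were more than 25% higher, with a median of 0.22 and a ratio of summed levels of 1.19. FDFT1, squalene synthase, was at 430.89 TPM with DMSO and 506.81 TPM with CCA-1.1 (difference 0.23). SQLE, the epoxidase that adds oxygen to squalene, was at 349.46 and 363.83 TPM (difference 0.06). LSS, which closes the rings to lanosterol, was at 114.5 and 111.53 TPM (difference -0.04). The steps that make and close the sterol rings thus differed little between the libraries.

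The 3 genes past the threshold in this stage act in removing methyl groups from lanosterol. CYP51A1, the lanosterol demethylase, was at 73.33 TPM with DMSO and 98.89 TPM with CCA-1.1 (difference 0.43). MSMO1 (gene ID 6307, chr4:165327669-165343164), the methylsterol monooxygenase, was at 376.26 and 534.66 TPM (difference 0.51), the next largest among the members after HMGCS1. NSDHL, the dehydrogenase that works in the same demethylation, was at 23.29 and 29.38 TPM (difference 0.32), the member closest to the threshold from above. HSD17B7, the ketoreductase of this step, was at 24.77 and 28.83 TPM (difference 0.21).

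The remaining reductases and isomerases were mostly higher in direction without passing the threshold. EBP, which shifts a double bond in the sterol ring, was at 127.02 TPM with DMSO and 147.77 TPM with CCA-1.1 (difference 0.22). SC5D, a desaturase, was at 18.82 and 23.13 TPM (difference 0.28), and DHCR7, the reductase that makes cholesterol from its direct precursor, was at 172.54 and 200.98 TPM (difference 0.22). TM7SF2, a sterol reductase, was the enzyme with the largest lower value, at 36.69 and 32.32 TPM (difference -0.18). With protein-coding transcripts alone its difference was -0.48, since these summed to 32.19 and 22.85 TPM while a non-coding transcript, NR_102367.2, was at 4.50 and 9.47 TPM.

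**Figure D2:**
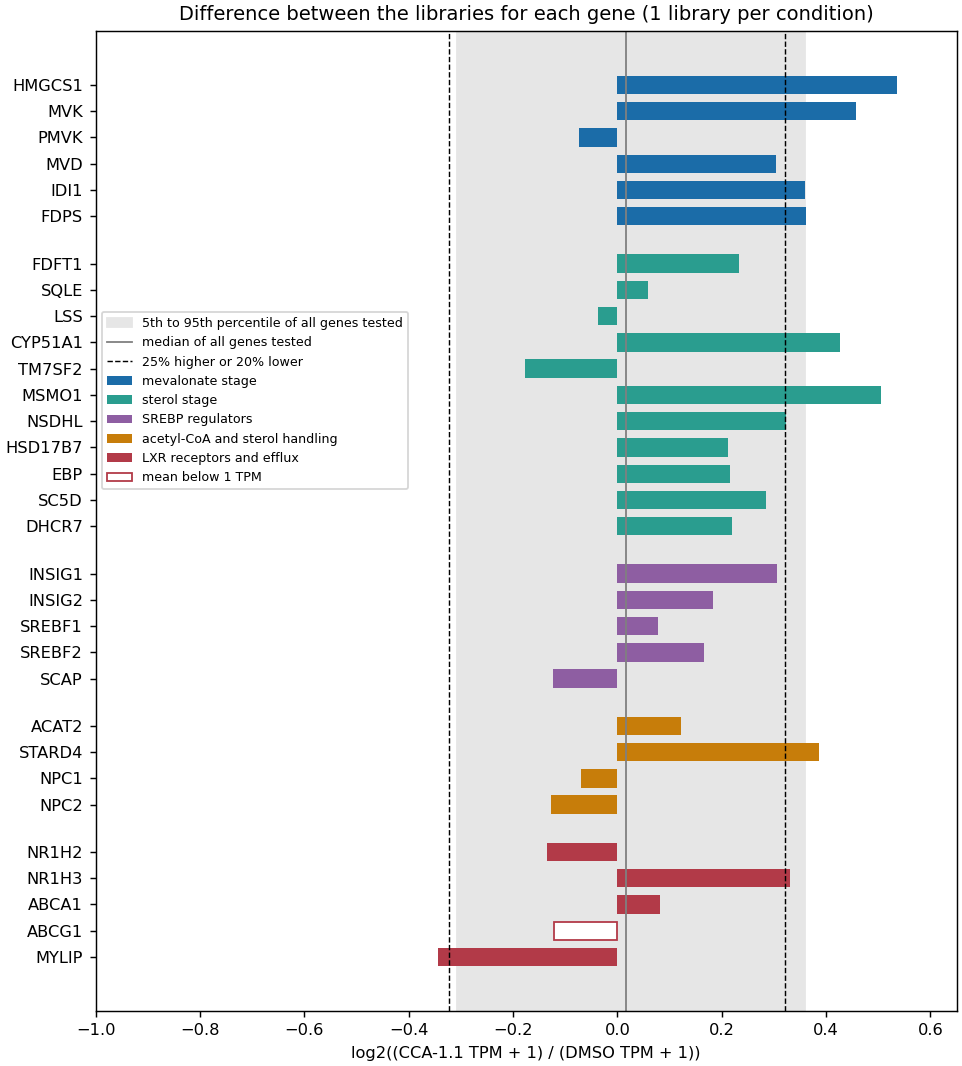
Difference of each member between the CCA-1.1 and DMSO libraries on the log2(TPM + 1) scale, as bars coloured by role, with 1 library per condition; dashed lines mark 25% higher and 20% lower, the grey band the 5th to 95th percentile of all 12041 genes and the grey line their median. Bars of 9 members pass the right dashed line, led by HMGCS1 at 0.54 and MSMO1 at 0.51, and MYLIP alone passes the left one at -0.34.

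The regulators of SREBPs were higher in direction in 4 of 5 cases, and none passed the threshold (median 0.17). INSIG1, which retains SCAP and is itself a known SREBP target, was at 927.56 TPM with DMSO and 1146.85 TPM with CCA-1.1, a difference of 0.31 just below the threshold. INSIG2, its paralog, was at 29.35 and 33.47 TPM (difference 0.18). INSIG1 was thus far more abundant than INSIG2 in both libraries.

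SREBF2, which encodes the SREBP that mainly drives cholesterol genes, was at 128.44 TPM with DMSO and 144.25 TPM with CCA-1.1 (difference 0.17). SREBF1, whose products mainly drive fatty acid genes, was at 66.61 and 70.35 TPM (difference 0.08). SCAP, the escort, was at 51.69 and 47.37 TPM (difference -0.12). These are mRNA levels, and the cutting of SREBPs, which sets their activity, was not measured.

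Of the 4 genes that handle acetyl-CoA and sterols, STARD4 alone passed the threshold. STARD4, a soluble carrier that moves cholesterol between membranes, was at 103.28 TPM with DMSO and 135.24 TPM with CCA-1.1 (difference 0.39). ACAT2, the cytosolic thiolase that supplies acetoacetyl-CoA, was at 22.03 and 24.06 TPM (difference 0.12). NPC1 and NPC2, the pair of proteins that pass cholesterol from taken-up lipoproteins out of the lysosome, were both lower in direction. NPC1 was at 387.83 and 369.71 TPM (difference -0.07), and NPC2 was at 483.18 and 442.52 TPM (difference -0.13).

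The LXR genes and efflux genes did not move in a single direction (median -0.03). NR1H2, which encodes LXR beta, was at 102.51 TPM with DMSO and 93.23 TPM with CCA-1.1 (difference -0.14). NR1H3, which encodes LXR alpha, was at 5.93 and 7.72 TPM (difference 0.33), but with curated transcripts alone its difference was -0.16, as described with the transcripts. The 2 receptor genes therefore lay on opposite sides of 0 when all transcripts were summed, but NR1H2 did not pass the threshold. ABCA1, the exporter that loads cholesterol onto apolipoproteins and a known LXR target, was at 21.04 and 22.33 TPM (difference 0.08). ABCG1, another exporter, was listed at 0.11 and 0.02 TPM, with 1 of its 12 transcripts above 0, and no fold is given. MYLIP, an LXR target whose product marks lipoprotein receptors for degradation, was at 4.15 and 3.06 TPM (difference -0.34), a value with 3.9% of all genes below it. The 2 genes past the threshold here were among the lowest-expressed members, and in the range of 1 to 10 TPM 11.7% of all genes were more than 25% higher and 6.26% more than 20% lower.

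**Figure D3:**
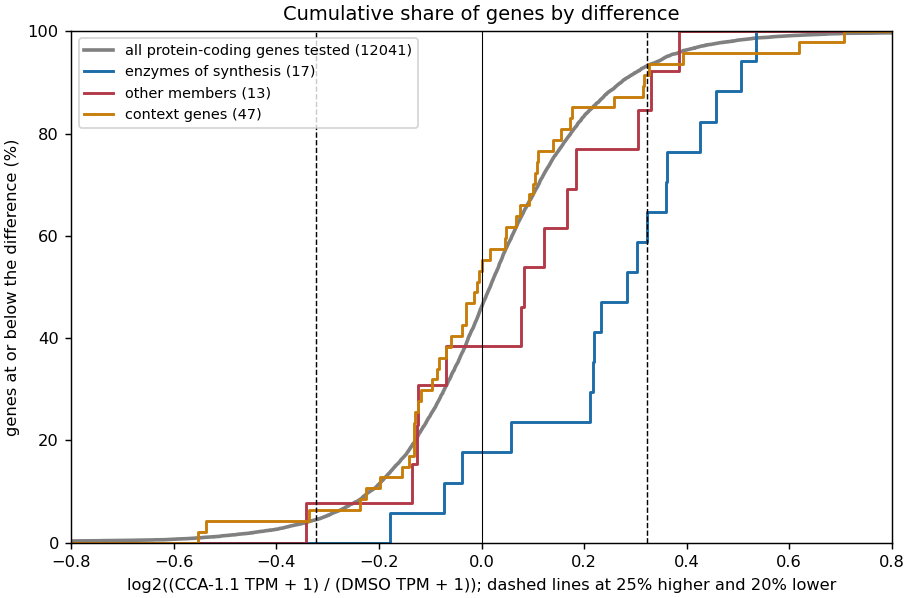
Cumulative share of genes, in percent, at or below each difference on the log2(TPM + 1) scale, for all 12041 protein-coding genes tested, the 17 enzymes, the 13 other members and 47 context genes; dashed lines mark 25% higher and 20% lower. The line of the enzymes lies to the right of that of all genes, with medians of 0.28 and 0.017, and the line of the context genes runs close to that of all genes, with a median of -0.01.

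Genes around the pathway gave values close to the background. Of 55 further genes of sterol metabolism in 7 lists, 47 passed the minimum, with a median difference of -0.01. Of these, 4 (8.51%) were more than 25% higher and 3 (6.38%) more than 20% lower, compared with 6.84% and 4.53% of all genes. Without the added 1 TPM, PDSS2 and VLDLR were also more than 25% higher. PDSS2 was at 2.37 TPM with DMSO and 3.19 TPM with CCA-1.1, and VLDLR at 5.81 and 7.48 TPM. Of the 10 genes that cut SREBPs or degrade the sterol sensor, none passed the threshold (median -0.05). Among them MBTPS1, the protease that makes the first cut in SREBPs, was at 70.76 TPM with DMSO and 60.39 TPM with CCA-1.1. Of the further LXR targets and partners, none of the 5 above the minimum passed the threshold (median -0.04). The 2 with the highest level were LPCAT3, at 34.97 and 34.99 TPM, and SMPDL3A, at 28.27 and 25.72 TPM.

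In the branch of isoprenoids that do not become sterols, 1 of 9 genes above the minimum passed the threshold (median 0.09). It was PDSS1, a subunit of the enzyme that makes the tail of coenzyme Q, at 5.57 TPM with DMSO and 9.09 TPM with CCA-1.1 (difference 0.62). Among 11 genes of sterol transport inside the cell, 9 (81.8%) were higher in direction, the same share as in the sterol stage. Their median was 0.10, and 2 were more than 25% higher. These were GRAMD1A, which carries cholesterol from the plasma membrane to the endoplasmic reticulum, at 47.80 and 63.05 TPM (0.39), and OSBPL5, a lipid transfer protein, at 1.75 and 2.45 TPM (0.33).

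The genes of cholesteryl ester turnover were lower in direction in 4 of 4 cases above the minimum (median -0.14), against 5539 of all 12041 genes. CES1 among them hardly differed, at 160.85 TPM with DMSO and 160.25 TPM with CCA-1.1. NCEH1, which hydrolyses cholesteryl esters, passed the threshold at 55.87 TPM with DMSO and 38.18 TPM with CCA-1.1 (difference -0.54). CH25H, which makes an oxysterol from cholesterol, was at 16.24 and 10.75 TPM (difference -0.55) and was the 1 gene of 5 in oxysterol synthesis above the minimum. Among 7 lipoprotein receptors and their partners (median -0.06), CD36, a scavenger receptor, was more than 25% higher at 1.83 and 3.62 TPM (0.71). SORT1, the sorting receptor sortilin, was more than 20% lower at 55.46 and 43.74 TPM (-0.34).

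**Figure D4:**
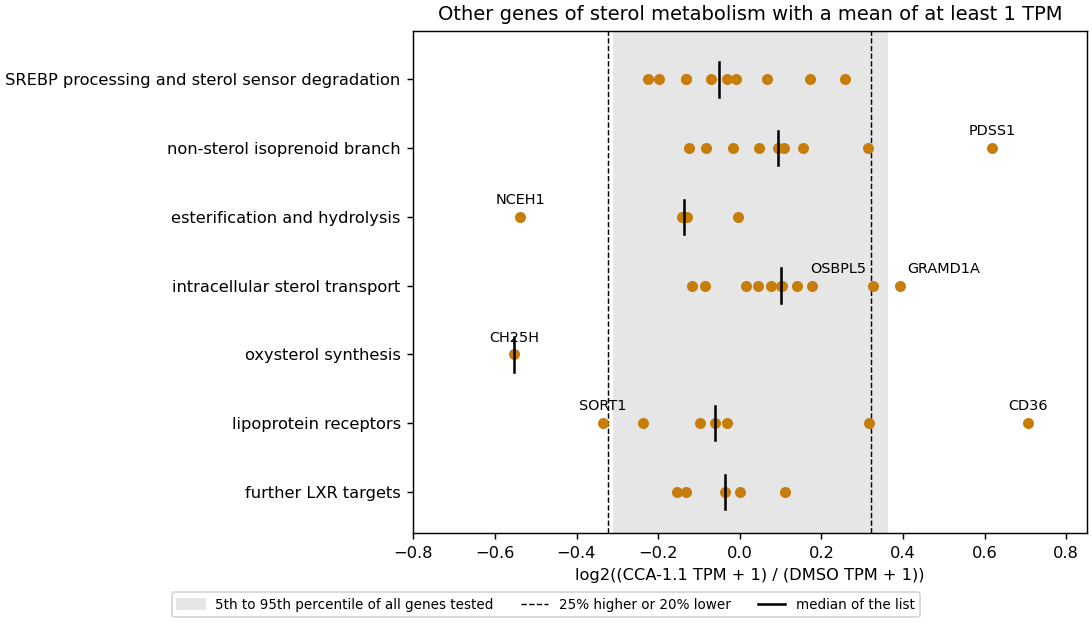
Difference of each further gene of sterol metabolism with a mean of at least 1 TPM on the log2(TPM + 1) scale, by list, with a black bar at the median of each list, dashed lines at 25% higher and 20% lower and the grey band from the 5th to the 95th percentile of all genes tested. The 7 named genes lie past the threshold, 4 to the right and 3 to the left, and the list medians lie between -0.14 and 0.10 except for oxysterol synthesis, which rests on CH25H at -0.55.

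The single transcripts of the members were examined because Kallisto splits reads among transcripts of a gene. The members had 222 transcripts in the table, of which 48 were at 0 in both libraries and 117 were above 1 TPM in at least 1 library. In 30 of 31 members the most abundant transcript, by the sum of both libraries, moved in the direction of the gene. This is partly built in, since that transcript is part of the gene's sum and in EBP, ABCA1 and ABCG1 is all of it. In HMGCS1, NM_002130.8 was at 45.97 TPM with DMSO and 69.53 TPM with CCA-1.1, and NM_001098272.3 was at 47.98 and 66.57 TPM. Both leading transcripts of HMGCS1 were therefore higher with CCA-1.1. The exception was SCAP, whose leading transcript XM_005264967.3 was at 37.65 and 38.05 TPM while its curated transcripts summed to 9.21 and 6.05 TPM.

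Among members with more than 1 transcript above 1 TPM, 10 transcripts in 7 members passed 2-fold, 4 higher and 6 lower, and all were below 10 TPM in both libraries. The share past 2-fold among all transcripts of the table was not computed, so these counts have no background beside them. In HMGCS1, NM_001324222.2 was at 4.22 TPM with DMSO and 1.42 TPM with CCA-1.1 while NM_001324223.2 was at 3.92 and 9.66 TPM, and the pair summed to 8.14 and 11.08 TPM. In MVK, XM_017019313.3 was at 1.29 and 0 TPM while XM_047428873.1 was at 0.01 and 1.24 TPM, so that their sum hardly differed, at 1.30 and 1.24 TPM. The transcripts of each pair differed in opposite directions, and the sum of the gene was higher in both HMGCS1 and MVK. In SREBF1, NM_001321096.3 was at 7.39 and 3.15 TPM, and in SCAP XM_047447744.1 was at 1.90 and 0.40 TPM and XM_047447735.1 at 1.19 and 0 TPM.

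In NR1H3, NM_005693.4 was at 1.87 TPM with DMSO and 0.36 TPM with CCA-1.1, and the curated transcripts summed to 3.55 and 3.07 TPM while the predicted ones summed to 2.38 and 4.65 TPM. The higher sum of NR1H3 thus came from predicted transcripts. The last of the 10 were XM_024447980.2 of IDI1, at 0.66 and 2.75 TPM, and XM_011523086.3 of MVD, at 0 and 1.06 TPM, each at most 1.15% of its gene's level.

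**Figure D5:**
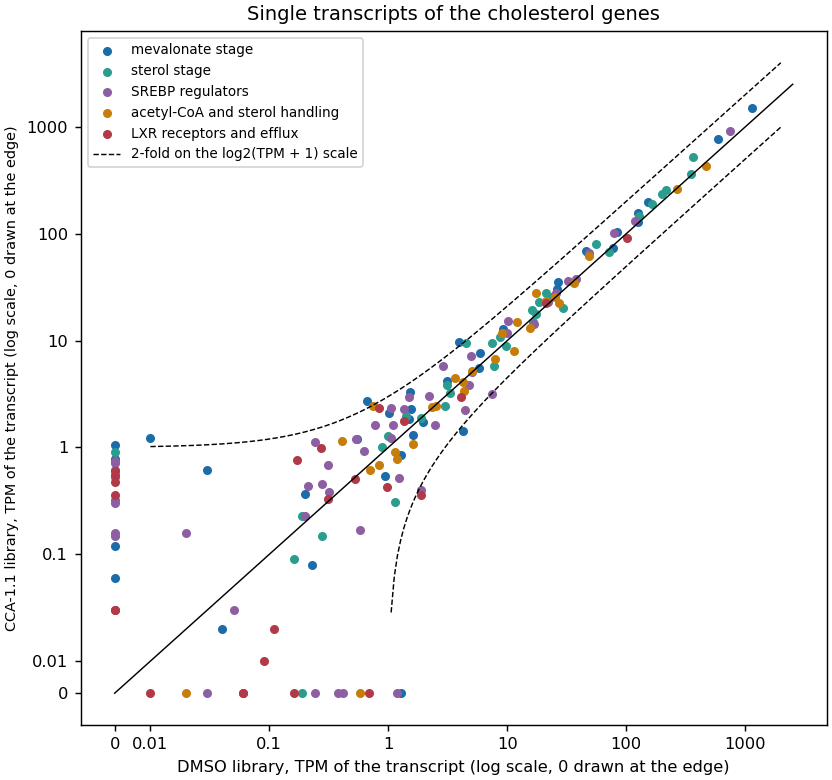
TPM of the single transcripts of the members in the DMSO library (x axis) and the CCA-1.1 library (y axis), log scales with 0 drawn at the edge, coloured by role, with the line of equality and dashed lines at 2-fold on the log2(TPM + 1) scale. Transcripts above 10 TPM lie near the line of equality, and the 10 outside the dashed lines are all below 10 TPM.

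Some members share their position with other genes, and whether reads were assigned by strand is not stated. By the RefSeq positions of whole genes, introns included, 19 members overlap another gene. MMAB, a cobalamin enzyme gene that overlaps MVK and is known to share its promoter region, was at 11.86 TPM with DMSO and 16.30 TPM with CCA-1.1 (difference 0.43), close to the 0.46 of MVK. RUSC1-AS1, which overlaps FDPS, was at 56.51 and 86.54 TPM (difference 0.61), and LOC105375592, which overlaps INSIG1, was at 9.02 and 14.45 TPM (difference 0.62). These overlapping genes were higher together with the member, but others were not. IDI2-AS1 and WDR37, which overlap IDI1, differed by -0.10 and -0.06, and CYP51A1-AS1, listed at 0.10 and 0.05 TPM, by -0.07. Around ACAT2, SOD2 was at 2157.95 and 1651.97 TPM (difference -0.39), and TCP1 at 367.15 and 417.58 TPM (difference 0.19), while ACP2, which overlaps NR1H3, was at 12.21 and 9.89 TPM (difference -0.28). Shared transcript sequence was not examined, so how far an overlap affects the value of a member is not known. The same holds for IDI1, FDPS, CYP51A1 and HSD17B7, which have named pseudogenes. Of these pseudogenes, HSD17B7P2 was at 3.19 and 4.06 TPM and FDPSP2 at 0.12 and 0.15 TPM.

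The CCAAT box was set beside the differences. Of the 9 members more than 25% higher, 8 held it in at least 1 upstream window, all but CYP51A1, and of the 18 other members with an entry 11 did. In DHCR7, IDI1 and NR1H3 the box was absent before the outer start of the gene and present only before a start inside it. The entries of MVK, CYP51A1, PMVK and SCAP also lie before a start inside the gene, so their outer starts were not searched. The upstream windows of HMGCS1, MSMO1 and FDPS shown above each hold several copies, and their genes differed by 0.54, 0.51 and 0.36. HMGCS1 and MSMO1 were shown for their large differences, so this pairing was fixed by the choice. Several copies were also found in other members more than 25% higher, such as MVK and NSDHL (5 each, differences 0.46 and 0.32). They were found as well in members that were not, such as EBP and MVD (3 each, 0.22 and 0.30) and MYLIP (2, -0.34). The shares and copy numbers describe the members and were not tested.

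The markers of the cell line were checked in both libraries. VIM, a mesenchymal filament gene, was at 3216.8 TPM with DMSO and 3106.3 TPM with CCA-1.1, and CD44 was at 607.4 and 472.6 TPM (difference -0.36). GFAP was at 0.41 and 0.57 TPM and S100B was listed at 0 in both, so these astrocyte markers were near or at 0. OLIG2 was at 5.64 and 7.03 TPM, SOX2 at 1.87 and 1.45 TPM and NES at 7.53 and 7.62 TPM. The 8 markers of other cell types summed to 18.6 and 19.2 TPM, with PTPRC, CDH5, EPCAM and ALB below 1 TPM in both libraries. SYT1 was the highest at 11.38 and 11.54 TPM. PECAM1 was at 3.41 and 2.71 TPM (difference -0.25) and RBFOX3 at 1.83 and 2.45 TPM (difference 0.29). MBP was at 1.22 and 1.95 TPM, and its difference of 0.41 passed the threshold. The part of any marker in the differences was not tested.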

How the data were processed

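RNA of U87 cells was measured in 1 library after DMSO and 1 after CCA-1.1, both at 72 h. Per the study's methods, enriched mRNA was sequenced on an Illumina instrument, reads were checked with FastQC 0.11.9 and MultiQC 1.1 and transcripts of GRCh38.p14 were quantified with Kallisto. The authors deposited TPM per transcript, rounded to 2 decimals, summing to 999999 and 1000000. TPM keeps no read depth, so neither counting error nor a limit for values of 0 can be given, and no count test was run.

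Transcripts were assigned to genes through RefSeq's table for GRCh38.p14 (169411 of 177816 exactly, 169966 with versions ignored), and unmatched transcripts held 0.941% and 0.967% of the TPM. TPM was summed per gene, and differences of log2(TPM + 1) were taken with a minimum mean of 1 TPM, using Python 3.11.15, numpy 2.4.6, pandas 2.3.3 and matplotlib 3.10.9. The script was tested on simulated data. No p-value was computed. Upstream sequences were read from a RefSeq promoter table of GRCh38.p14, which matched 27 of the 31 genes. SQLE, ACAT2, FDFT1 and ABCG1 had no match.

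All 31 genes were named. From each list of further genes, those more than 25% higher or 20% lower were named, or the 2 with the highest TPM where none passed, and so were transcripts past 2-fold in members with more than 1 transcript above 1 TPM. Overlapping genes, pseudogenes and leading transcripts were named after their values were seen. The members and lists were chosen with earlier results of these data known. Not every gene of the pathway or under this rule is reported here. Alternatives were pseudocounts of 0.1 and 0.01 TPM, no minimum or one of 10 TPM, median-ratio scaling, and curated or protein-coding transcripts only.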

Additional observations from a re-analysis of the deposited data

How the results depend on the processing

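With 1 library per condition and no read depth, neither replicate error nor counting error could be estimated. No paired analysis was possible because each condition had 1 library, and for the same reason no library could be left out. Under the 7 alternatives, between 7 and 9 members were more than 25% higher and none passed 2-fold, the median of the members lay between 0.20 and 0.22, and that of the enzymes between 0.28 and 0.30. NSDHL was just under 25% higher with median-ratio scaling (0.32), STARD4 was so with curated transcripts only (0.30), and with these NR1H3 reversed to -0.16. The count of members more than 20% lower, 1 as reported, was 0 with a minimum mean of 10 TPM, which leaves out MYLIP, 2 with curated transcripts only (MYLIP and SCAP, at -0.53) and 2 with protein-coding transcripts only (MYLIP and TM7SF2, at -0.48). The median of the LXR and efflux genes, -0.03 as reported, was -0.12 without a minimum and -0.15 with curated transcripts only. That of the other isoprenoid genes was 0.017 with curated transcripts only, and that of oxysterol synthesis was -0.11 without a minimum, over 5 genes. Of all genes, 4.33% were more than 25% higher with a minimum mean of 10 TPM, but 9.41% with a pseudocount of 0.1 TPM and 9.68% with 0.01 TPM. With curated transcripts only, 6.82% of all genes were more than 20% lower. In all, 208 gene differences were recomputed, of which 2 moved by more than 0.18 beside the reversal of NR1H3. Of 98 recomputed medians, the 4 given here moved by more than 0.18 divided by the square root of the number of genes in the list.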

Other observations

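The genes of both SREBPs carry microRNA genes in introns, MIR33A in SREBF2 and MIR33B in SREBF1, whose products are known to act on ABCA1 mRNA. MIR33A was listed at 0 TPM with DMSO and 7.24 TPM with CCA-1.1, and MIR33B at 0 and 4.82 TPM, so no fold is given. TPM divides by length, and for hairpins this short few reads give a large value. In an mRNA library such values do not measure the mature microRNA, and reads of the host transcripts cannot be told apart from those of the hairpins. ABCA1 mRNA was at 21.04 and 22.33 TPM. The mature 5p sequences (RefSeq, GRCh38.p14) are shown because they share the seed, bases 2 to 8 in capitals, and miR-33a-5p lies at chr22:41900949-41900969 on the plus strand and miR-33b-5p at chr17:17813897-17813916 on the minus strand.
hsa-miR-33a-5p: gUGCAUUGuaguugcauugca
hsa-miR-33b-5p: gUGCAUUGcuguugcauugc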
